A study of Mus musculus with 16 samples.

Results

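The genes described here carry out antigen presentation by the major histocompatibility complex (MHC), and 10 of the 55573 genes in the count table were chosen by name: H2-Aa, H2-Ab1, H2-Eb1, H2-DMa, H2-DMb1, Cd74 and Ciita of the class II pathway, and H2-K1, H2-D1 and B2m of class I. Each name matched a single row, and all 10 were among the 16857 genes that passed the expression filter. The levels were measured by RNA-Seq in the heart apex of 16 male mice, in 4 groups of 4. Wild-type pups received adeno-associated virus of serotype 9 (AAV9) under the skin at postnatal day 1, carrying either GFP or the long noncoding RNA Cardinal behind a cardiac troponin T promoter that is active in cardiomyocytes, and later had sham surgery or transverse aortic constriction (TAC), which narrows the aorta and raises the pressure the left ventricle works against. Hearts were taken 4 weeks after surgery. Each virus was combined with each surgery, so every mouse, the sham and GFP controls included, carried a virus. The virus expresses its cargo in cardiomyocytes, whereas the apex was sequenced as whole tissue. The strain and age of the mice are not given in the sources used here.

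MHC class I is found on nearly all nucleated cells. A heavy chain such as H2-K or H2-D folds around a short peptide from the cell's own proteins and is held by beta-2 microglobulin, and the complex is read by CD8 T cells. MHC class II belongs to professional antigen-presenting cells, in the heart mainly macrophages, dendritic cells and B cells, and shows peptides from engulfed material to CD4 T cells. Its alpha and beta chains assemble with the invariant chain (Cd74), which blocks the groove until H2-DM exchanges its last fragment for a peptide, and the whole set of class II genes is switched on by the coactivator Ciita. Interferon-gamma raises both pathways.

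Promoters of 5 members are shown because genes of each class moved together between mice, as described further on. They are RefSeq's sequences for GRCm38.p6, read from the gene's own strand from 190 bases before the transcript start to the first 10 bases of the transcript, and a promoter was given for 7 of the 10 genes, with 2 starts for H2-K1, of which 1 is shown. Capitals mark matches, on either strand, to the Y box core GATTGG that the factor NF-Y binds, to a kappaB site GGGGATTCC, or to interferon-response letters of either of 2 forms, GAA, any base, then TGAAAC (the first form), and GAAA, any 2 bases, then GAAA (the second form). H2-Aa lies at chr17:34287814-34288013 (minus), H2-Eb1 at chr17:34305677-34305876 (plus), H2-K1 at chr17:34000324-34000523 (minus), H2-D1 at chr17:35262904-35263103 (plus) and B2m at chr2:122147497-122147696 (plus).
H2-Aa: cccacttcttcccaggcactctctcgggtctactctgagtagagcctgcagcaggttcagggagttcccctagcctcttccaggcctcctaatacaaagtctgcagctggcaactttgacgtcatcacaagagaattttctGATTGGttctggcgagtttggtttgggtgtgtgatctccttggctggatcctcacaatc
H2-Eb1: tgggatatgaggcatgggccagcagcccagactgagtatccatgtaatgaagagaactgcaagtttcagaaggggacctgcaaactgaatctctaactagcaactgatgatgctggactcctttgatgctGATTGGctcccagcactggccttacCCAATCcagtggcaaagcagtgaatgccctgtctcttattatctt
H2-K1: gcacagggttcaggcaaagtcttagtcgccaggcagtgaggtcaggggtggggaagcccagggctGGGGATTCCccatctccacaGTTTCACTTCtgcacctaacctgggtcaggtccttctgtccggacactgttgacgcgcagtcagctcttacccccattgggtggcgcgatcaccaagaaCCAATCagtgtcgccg
H2-D1: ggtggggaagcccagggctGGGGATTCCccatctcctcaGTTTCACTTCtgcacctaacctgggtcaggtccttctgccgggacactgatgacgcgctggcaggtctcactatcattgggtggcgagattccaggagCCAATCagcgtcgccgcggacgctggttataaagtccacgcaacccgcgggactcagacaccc
B2m: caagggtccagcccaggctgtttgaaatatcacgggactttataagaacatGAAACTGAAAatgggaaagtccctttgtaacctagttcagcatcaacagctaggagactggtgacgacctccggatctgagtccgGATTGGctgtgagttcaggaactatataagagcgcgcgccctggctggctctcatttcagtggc
Both class II promoters printed carry the Y box close to the start, beginning 49 bases before it in H2-Aa and 60 bases before it in H2-Eb1, where a second copy on the other strand begins 35 bases before the start. B2m has it 54 bases before the start on the same strand. H2-K1 and H2-D1 hold it in reverse, and both also hold the kappaB letters followed by the interferon-response letters in reverse, 125 and 105 bases before the start in H2-K1 and 171 and 151 bases before it in H2-D1. The H2-K1 and H2-D1 windows share an identical run of 40 bases, while any other pair of the 5 windows shares at most 8. Over the full 300-base windows, the Y box letters were found in all 7 genes with a promoter, against 16.1% of 32851 promoters of all genes. The kappaB letters were found in 2 of the 7 genes against 0.25%, the first interferon-response form in the same 2 genes against 0.405%, and the second form in B2m alone against 3.44%. None of the 4 motifs overlapped another in the windows printed. Such matches describe letters in the window and do not show binding.

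Libraries held between 16441997 and 21904589 counts, with AAV9-Cardinal sham 4 the shallowest and the next lowest at 21525012, and 3 counts, taken as the floor, correspond to 0.137 to 0.182 CPM, the usual count scaled by library size. Such floors cover counting error only. CPM values below use library sizes scaled by edgeR's TMM method, log2 fold changes and their standard errors (SE) come from edgeR's quasi-likelihood fit of all 16 mice, and adjusted p denotes the Benjamini-Hochberg value over all 16857 genes with 0.05 as the threshold. Cardinal, listed as Gm12295, served as the check of the virus. It stood at 40.03, 30.2, 26.2 and 27.6 CPM in AAV9-Cardinal sham mice and at 93.9, 18.3, 19.5 and 20.6 CPM in AAV9-Cardinal TAC mice, against 3.42 to 7.24 CPM in the 8 mice given AAV9-GFP, with vector and endogenous reads counted together. AAV9-Cardinal TAC 1, the mouse with 93.9 CPM, also differed more from the other 3 mice of its group (chi-square per degree of freedom 12.4 to 13.5) than they did from each other (5.10 to 7.58), so the fold changes of the members in that group are also given without it. In all 24 within-group pairs of mice the counts differed beyond sampling noise (5.10 to 14.9). The tissue label fitted its markers: 6 cardiomyocyte genes summed to between 28047 and 38941 CPM. In whole tissue, fewer cells of a type and less RNA per cell cannot be told apart.

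B2m was the most abundant member and Ciita the rarest. Levels of different genes are compared here as CPM per kilobase of exon, averaged over the 16 mice. The length used is that of all annotated exons of a gene merged, from 860 bases for B2m to 9535 for Ciita, with 2938 for H2-K1 and 3798 for H2-Aa. The order of neighbouring genes can therefore depend on the annotation. B2m (ENSMUSG00000060802), the shared light chain of class I, stood first at 209 ± 36.3 CPM per kilobase (SD, n = 16), above every mouse of the next gene. H2-D1 (ENSMUSG00000073411) followed at 38.9 ± 4.16, Cd74 (ENSMUSG00000024610) at 28.4 ± 4.00 and H2-K1 (ENSMUSG00000061232) at 25.1 ± 3.90 CPM per kilobase. The ranges of these 3 genes overlapped their neighbours in the order. The class II beta chain genes H2-Eb1 (ENSMUSG00000060586) and H2-Ab1 (ENSMUSG00000073421) and the alpha chain gene H2-Aa (ENSMUSG00000036594) formed the next step, at 6.71 ± 1.11, 5.60 ± 0.892 and 4.65 ± 0.830 CPM per kilobase, again with overlapping ranges and with no overlap with H2-K1. The genes for the peptide exchange factor, H2-DMb1 (ENSMUSG00000079547) and H2-DMa (ENSMUSG00000037649), were lower still at 0.782 ± 0.202 and 0.542 ± 0.138, and Ciita (ENSMUSG00000022504) came last at 0.103 ± 0.0349 CPM per kilobase, below every mouse of H2-DMa. The read depth behind these levels differed accordingly. B2m had 2473 to 6568 counts in a mouse, H2-K1 1129 to 2169 and Cd74 779 to 1280, whereas H2-DMa had 27 to 53, H2-DMb1 16 to 42 and Ciita 13 to 41. Counting alone gives an error of 27.7% at 13 counts and of 2.98% at 1129 counts, so the last 3 genes are measured far less firmly than the rest.

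**Figure D1:**
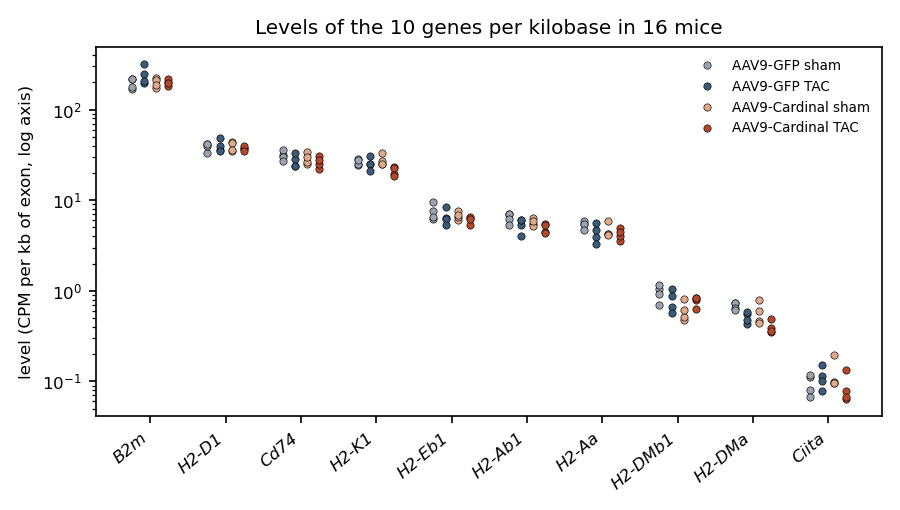
Level of each of the 10 genes in CPM per kilobase of exon (log axis), with a point for each of the 16 mice colored by group and the genes in order of their mean. B2m lies above all others, H2-D1, Cd74 and H2-K1 form the next step, H2-Eb1, H2-Ab1 and H2-Aa the one after it, and Ciita lies lowest at a mean of 0.103.

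The genes sit in 4 places of the GRCm38 genome, annotated by GENCODE M21, and all are protein coding. The H2 genes lie on chromosome 17: H2-K1 from 33996017 to 34000347 on the minus strand, H2-DMa from 34119541 to 34139101 and H2-DMb1 from 34153072 to 34160230 on the plus strand, H2-Ab1 from 34257689 to 34269419 on the plus strand, H2-Aa from 34282744 to 34287823 on the minus strand, H2-Eb1 from 34305867 to 34316674 and H2-D1 from 35262730 to 35267499 on the plus strand. B2m is on chromosome 2 from 122147686 to 122153083, Ciita on chromosome 16 from 10480059 to 10528418 and Cd74 on chromosome 18 from 60803848 to 60812652, all on the plus strand. Because the libraries hold 50-base reads, all 50-base stretches of each gene's transcripts were compared with those of every other annotated gene. For H2-Ab1, H2-Eb1, Cd74 and B2m 0% of the stretches were shared. H2-DMb1 shared 22.7% of them, all with its neighbor H2-DMb2, H2-D1 shared 12.8% and H2-K1 9.63%, with each other, with other class I genes such as H2-Q7 and, for H2-D1, also with genes outside class I such as Terf1 and Adsl. H2-DMa shared 8.43%, all with Brd2, whose exon it overlaps on the opposite strand. Ciita overlaps an exon of Dexi on the opposite strand, and Cd74 overlaps the microRNA gene Mir5107 on its own strand. How the authors counted strand and reads with several matches is not given in the sources used here, so the values of H2-DMb1, H2-K1, H2-D1, H2-DMa and Ciita are uncertain to that extent.

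The first comparison asks what pressure overload did to these genes in control hearts. In AAV9-GFP mice no member passed the threshold in TAC against sham with edgeR, at 0 of 10 genes against 17.4% of all genes tested, and DESeq2 also called 0. At an unadjusted edgeR p under 0.05 there were 2 of 10, H2-DMa lower and B2m higher. Among all genes that share was at least the 17.4% that passed the adjusted threshold. The 7 class II members had a median log2 fold change of -0.26, 6 of them below 0, and the 3 class I members one of 0.04, beside 0.01 over all genes. The mice of the groups did not overlap in 1 of the 10 genes, H2-DMa, against 20.3% of all genes.

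Values for single mice are listed in the order of their label numbers, which are 1 to 4 in both sham groups, 1, 3, 4 and 7 in AAV9-GFP TAC, and 1, 4, 5 and 6 in AAV9-Cardinal TAC. Cd74, the invariant chain, stood at 52.9, 60.0, 50.2 and 45.4 CPM in AAV9-GFP sham hearts and at 40.2, 47.2, 56.0 and 39.7 CPM in AAV9-GFP TAC hearts. After TAC 2 mice lay within the sham range and 2 below it, so the groups overlapped. The log2 fold change was -0.19 (SE 0.13, edgeR adjusted p = 0.38). H2-Aa, the alpha chain of I-A, measured 20.7, 22.3, 20.5 and 17.6 CPM after sham surgery and 14.7, 18, 21.4 and 12.3 CPM after TAC. AAV9-GFP TAC 4 was as high as the sham mice and AAV9-GFP TAC 7 was the lowest of all 16, giving a log2 fold change of -0.29 (SE 0.16, edgeR adjusted p = 0.25). H2-Ab1, the beta chain of I-A, averaged 16.5 ± 2.12 CPM (SD, n = 4) in sham and 13.8 ± 2.51 CPM in TAC hearts, and H2-Eb1, the beta chain of I-E, 14.5 ± 3.00 and 12.7 ± 2.48 CPM. Both differences were within the spread of the mice (log2 fold changes -0.26 and -0.19, edgeR adjusted p = 0.21 and 0.42).

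H2-DMa, a chain of the exchange factor that loads class II, was the member whose groups did not overlap in control hearts. It stood at 2.51, 2.55, 2.25 and 2.102 CPM in AAV9-GFP sham mice and at 1.93, 2.01, 1.49 and 1.65 CPM in AAV9-GFP TAC mice. Every TAC mouse was below every sham mouse, a log2 fold change of -0.41 (SE 0.17), with an exact two-sided permutation p of 0.029, the smallest that 4 against 4 mice allow, and an edgeR adjusted p of 0.12. Its partner H2-DMb1 measured 1.75, 1.97, 1.57 and 1.17 CPM after sham surgery and 1.11, 1.76, 1.49 and 0.957 CPM after TAC, with overlapping groups (log2 fold change -0.28, edgeR adjusted p = 0.43). Ciita, the coactivator of the class II promoters, stood at 0.757, 1.06, 1.13 and 0.635 CPM in sham and 1.46, 1.09, 0.962 and 0.739 CPM in TAC hearts. These groups overlapped too, and the interval of the Ciita log2 fold change, -0.41 to 0.91, is too wide at 13 to 34 counts for a difference of that size to be detected.

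**Figure D2:**
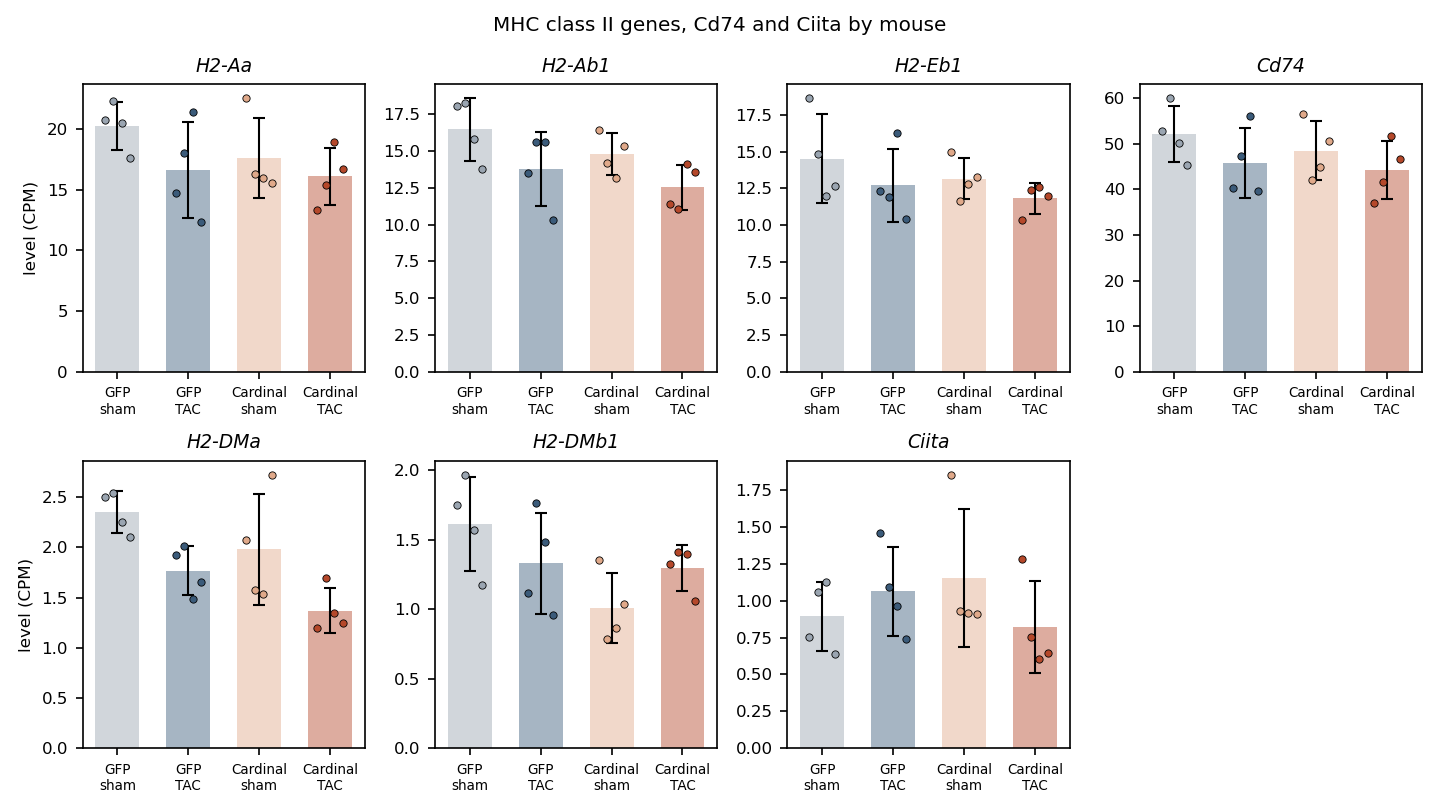
Levels in CPM of the 7 class II pathway genes in the 4 groups, with a point per mouse, bars at the group mean and error bars of 1 SD (n = 4). In each gene the TAC hearts overlap the sham hearts of the same virus, except for H2-DMa with AAV9-GFP. The 4 AAV9-GFP TAC values of H2-DMa are all below the 4 AAV9-GFP sham values.

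Of the class I genes in control hearts, B2m was the one that moved furthest. It stood at 144, 185, 153 and 188 CPM in AAV9-GFP sham hearts and at 167, 276, 212 and 177 CPM in AAV9-GFP TAC hearts. AAV9-GFP TAC 3 was the highest of all 16 mice, and AAV9-GFP TAC 1 and 7 lay within the sham range. The log2 fold change was 0.31 (SE 0.14, unadjusted edgeR p = 0.040, exact permutation p = 0.17, adjusted p = 0.14), and without AAV9-GFP TAC 3 it was 0.15. H2-K1 was 72.4, 82.8, 73.3 and 80.7 CPM in AAV9-GFP sham and 74.1, 91.0, 72.9 and 61.2 CPM in AAV9-GFP TAC hearts (log2 fold change -0.05, edgeR adjusted p = 0.84). H2-D1 was 85.3, 106, 101 and 108 and 93.3, 127, 103 and 91.0 CPM (log2 fold change 0.04, edgeR adjusted p = 0.84). For both heavy chains the groups overlapped widely, and the 95% intervals of the log2 fold changes were -0.29 to 0.20 for H2-K1 and -0.18 to 0.27 for H2-D1.

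The second comparison asks the same of hearts that overexpressed Cardinal. Here H2-K1 was the only member called, and it fell. It stood at 97.96, 73.5, 80.0 and 73.2 CPM in AAV9-Cardinal sham hearts and at 67.5, 56.7, 66.0 and 54.7 CPM in AAV9-Cardinal TAC hearts. Every TAC mouse was below every sham mouse, with AAV9-Cardinal sham 1 well above the rest. The log2 fold change was -0.41 (SE 0.12), the unadjusted edgeR p was 0.0032 and the adjusted p 0.0499, only just under the threshold. That call, 1 of 10 members, compares with 6.48% of all genes. The groups did not overlap for H2-K1 (exact two-sided permutation p = 0.029) and overlapped for the other 9, against 13.7% of all genes without overlap. DESeq2 called H2-K1 as well (adjusted p = 0.014), and so did 3 other ways of filtering, scaling or estimating the spread. Another 4 did not, with adjusted p between 0.051 and 0.28, although the log2 fold change stayed between -0.41 and -0.37. The threshold was missed when any one of 13 mice was left out (adjusted p 0.057 to 0.15) and kept only without AAV9-Cardinal TAC 1, AAV9-GFP TAC 3 or AAV9-GFP TAC 7. Without AAV9-Cardinal sham 1 the log2 fold change was -0.30 (adjusted p = 0.15), and without AAV9-Cardinal TAC 1 it was -0.45 (adjusted p = 0.041). In an analysis added after the values had been seen, 16 class I genes were summed into a single row. These were H2-K1 and the genes named H2 that share same-strand 50-base stretches with it. Other genes that share such stretches, such as Gm7030 and Gm11127, were left out. The log2 fold change of the summed row was -0.25 (SE 0.11, edgeR adjusted p = 0.20). H2-D1 held 38.2% of the summed counts and H2-K1 28.0%, so this is the change of the sum and not of H2-K1.

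H2-D1, the other classical heavy chain gene, had a smaller fold change than H2-K1. It was 113, 90.5, 109.7 and 92.6 CPM in AAV9-Cardinal sham hearts and 97.96, 93.7, 102 and 89.7 CPM in AAV9-Cardinal TAC hearts, overlapping, with a log2 fold change of -0.08 (SE 0.11). The ratio of H2-K1 to H2-D1 counts, into which the library size does not enter, was examined for that reason after the values had been seen. It was 0.870, 0.812, 0.729 and 0.791 in AAV9-Cardinal sham hearts and 0.689, 0.605, 0.646 and 0.610 in AAV9-Cardinal TAC hearts. All 4 TAC mice were below all 4 sham mice, and AAV9-Cardinal TAC 1 was the highest of the 4 (exact two-sided permutation p = 0.029, adjusted p = 0.11 over the 12 ratio tests made). In AAV9-GFP hearts the ratio was 0.774 ± 0.0545 (SD, n = 4) after sham surgery and 0.723 ± 0.0508 after TAC, with overlap (exact permutation p = 0.20).

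B2m, in contrast to its higher mean in control TAC hearts, was level here, at 192, 150.4, 185 and 160.4 CPM in AAV9-Cardinal sham and 175, 157, 187 and 167 CPM in AAV9-Cardinal TAC hearts. The log2 fold change of -0.0025 had a 95% interval of -0.30 to 0.29. The amount of B2m per heavy chain, as the ratio of B2m to H2-K1 plus H2-D1 in CPM per kilobase, had a higher mean after TAC with either virus. It was 2.98 ± 0.174 (SD, n = 4) in AAV9-GFP sham and 3.66 ± 0.355 in AAV9-GFP TAC hearts, and 2.99 ± 0.0976 in AAV9-Cardinal sham and 3.44 ± 0.166 in AAV9-Cardinal TAC hearts. The groups did not overlap in either pair (exact two-sided permutation p = 0.029 each, adjusted p = 0.11 over the 12 ratio tests). The TAC log2 fold changes of H2-D1 and B2m in AAV9-Cardinal hearts without AAV9-Cardinal TAC 1 were -0.09 and -0.0089, and the ratios were not tested without it.

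**Figure D3:**
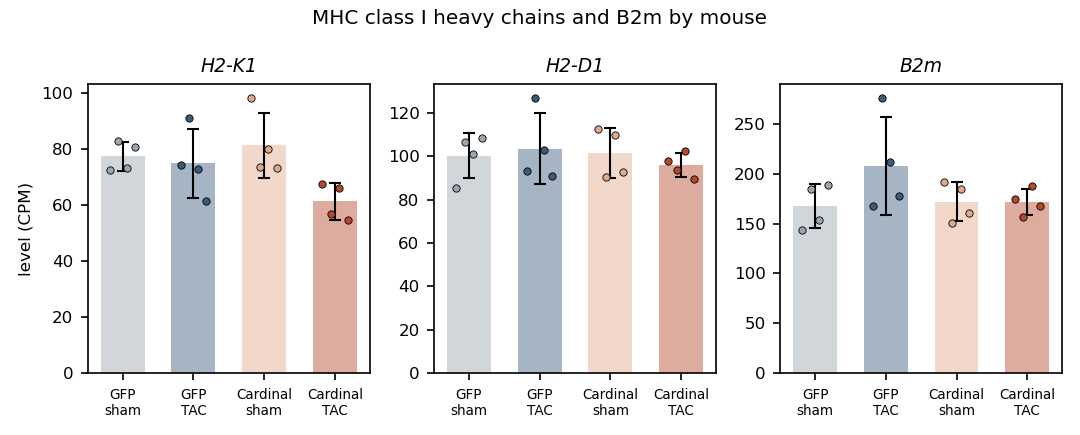
Levels in CPM of the class I genes H2-K1, H2-D1 and B2m in the 4 groups, with a point per mouse, bars at the group mean and error bars of 1 SD (n = 4). The 4 AAV9-Cardinal TAC mice lie between 54.7 and 67.5 CPM for H2-K1, below the 73.2 to 97.96 CPM of AAV9-Cardinal sham, and B2m is highest in AAV9-GFP TAC 3 at 276 CPM.

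None of the class II members passed the threshold in Cardinal hearts with edgeR or with DESeq2. An unadjusted edgeR p under 0.05 was found for 1 of the 7, H2-DMa. Among all genes that share was at least the 6.48% that passed the adjusted threshold. Their median log2 fold change was -0.16, while that of all genes was close to 0. H2-DMa stood at 2.08, 1.58, 1.54 and 2.72 CPM in AAV9-Cardinal sham and at 1.19, 1.69, 1.35 and 1.24 CPM in AAV9-Cardinal TAC hearts, with overlap through AAV9-Cardinal TAC 4. The log2 fold change was -0.51 (SE 0.18, unadjusted edgeR p = 0.013, exact permutation p = 0.086, adjusted p = 0.11), next to the -0.41 of control hearts. H2-DMb1 went the other way, from 1.36, 0.790, 0.865 and 1.04 CPM to 1.33, 1.41, 1.40 and 1.06 CPM (log2 fold change 0.36, edgeR adjusted p = 0.40). Cd74 was 48.5 ± 6.43 CPM (SD, n = 4) in AAV9-Cardinal sham and 44.2 ± 6.38 CPM in AAV9-Cardinal TAC hearts, H2-Aa 17.6 ± 3.31 and 16.1 ± 2.34, H2-Ab1 14.8 ± 1.42 and 12.5 ± 1.53, and H2-Eb1 13.2 ± 1.37 and 11.8 ± 1.03 CPM. Log2 fold changes of these 4 lay between -0.24 and -0.13, all with an edgeR adjusted p of 0.32 or more. Ciita stood at 1.85, 0.929, 0.913 and 0.908 CPM in AAV9-Cardinal sham and 1.28, 0.752, 0.605 and 0.645 CPM in AAV9-Cardinal TAC hearts. The first mouse was the highest in both of these groups, and the log2 fold change of -0.49 (SE 0.31) became -0.79 without AAV9-Cardinal TAC 1 and -0.15 without AAV9-Cardinal sham 1, neither past the threshold (edgeR adjusted p = 0.14 and 0.85). Without AAV9-Cardinal TAC 1 the log2 fold change of H2-DMa was -0.45 (edgeR adjusted p = 0.18) and that of H2-DMb1 0.35, while Cd74, H2-Aa, H2-Ab1 and H2-Eb1 lay between -0.19 and -0.05, and none passed.

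The comparisons of the viruses share their samples with the comparisons above, so their values are not independent of those. In TAC hearts no member differed between AAV9-Cardinal and AAV9-GFP with edgeR (0 of 10, against 0.101% of all genes) or with DESeq2. At an unadjusted edgeR p under 0.05 there was 1, against 2528 of 16857 genes. All 10 log2 fold changes were below 0, with a median of -0.12 beside -0.01 over all genes. That 1 gene was H2-K1, at 74.1, 91.0, 72.9 and 61.2 CPM in AAV9-GFP TAC and 67.5, 56.7, 66.0 and 54.7 CPM in AAV9-Cardinal TAC hearts (log2 fold change -0.29, SE 0.12, unadjusted edgeR p = 0.025, exact permutation p = 0.086, adjusted p = 0.26). The groups overlapped because AAV9-GFP TAC 7 lay among the Cardinal mice. H2-DMa (-0.37, SE 0.18) and B2m (-0.28, SE 0.14) had the next lowest unadjusted edgeR p-values, 0.058 and 0.063. The mice of the groups did not overlap in 0 of the 10 genes, against 6.77% of all genes. Without AAV9-Cardinal TAC 1 the count of members called was still 0, and H2-K1 had a log2 fold change of -0.34 (edgeR adjusted p = 0.16), H2-DMa of -0.31 and B2m of -0.29. Cd74 and H2-Aa were then at 0.03 and 0.04, and the other 8 members below 0.

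In sham hearts, too, 0 of 10 members differed between the viruses with edgeR (against 0.0119% of all genes) or with DESeq2, and the mice of the groups overlapped for every member (against 2.36% of all genes without overlap). The gene with the lowest unadjusted p was H2-DMb1, at 1.75, 1.97, 1.57 and 1.17 CPM with AAV9-GFP and 1.36, 0.790, 0.865 and 1.04 CPM with AAV9-Cardinal. A single Cardinal mouse, the first, reached the AAV9-GFP range, and the log2 fold change was -0.67 (SE 0.22, unadjusted edgeR p = 0.0092, adjusted p = 1, exact permutation p = 0.057). For the class I genes the intervals bound the difference more closely: the 95% interval of the log2 fold change was -0.18 to 0.32 for H2-K1, -0.21 to 0.24 for H2-D1 and -0.26 to 0.33 for B2m. The interval of Cd74 was -0.38 to 0.17.

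Whether the response to TAC differed between the viruses was tested as an interaction. No member passed with edgeR (0 of 10, against 0.0119% of all genes) or with DESeq2. At an unadjusted edgeR p under 0.05 there was 1, against 1722 of 16857 genes. The call of H2-K1 in Cardinal hearts and its absence in control hearts is thus not shown to be a difference between them: the difference in log2 fold change was -0.36 (SE 0.16, edgeR adjusted p = 0.48). The 95% interval, -0.71 to -0.01, is wide. The largest differences by size were those of the low genes Ciita (-0.74, SE 0.44) and H2-DMb1 (0.63, SE 0.31). For H2-Aa, H2-Ab1, H2-Eb1 and Cd74 the differences lay between 0.02 and 0.16 with SE of 0.19 to 0.23. No member passed without AAV9-Cardinal TAC 1 either. The difference was then -0.41 for H2-K1 (edgeR adjusted p = 0.28), -1.05 for Ciita (adjusted p = 0.26) and 0.62 for H2-DMb1 (adjusted p = 0.42), and between 0.06 and 0.24 for H2-Aa, H2-Ab1, H2-Eb1 and Cd74.

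**Figure D4:**
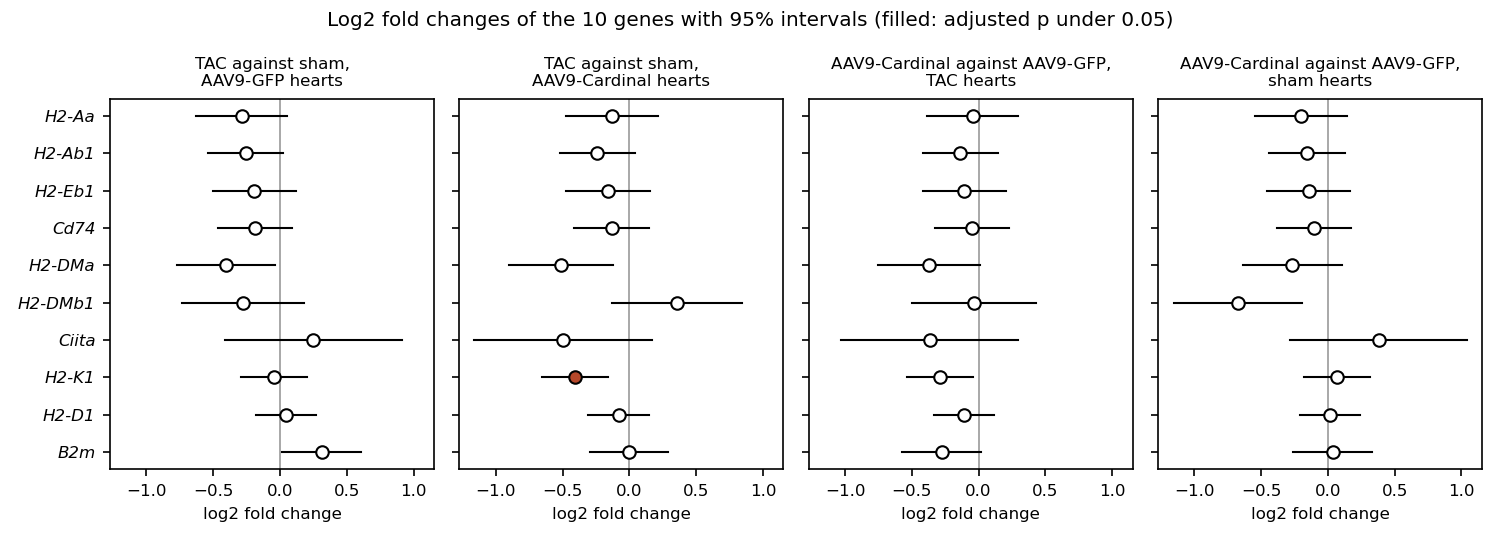
Log2 fold changes of the 10 genes in 4 comparisons (columns), as points with 95% intervals from the edgeR fit, filled where the adjusted p was under 0.05. A single point is filled, H2-K1 in TAC against sham of AAV9-Cardinal hearts at -0.41, and the intervals of H2-DMa lie below 0 in both TAC comparisons.

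Genes of each class moved together between mice of the same group in the pairs measured, except Ciita with H2-Aa. The relation was measured over the 16 mice as the correlation of deviations from the group means of log2 CPM, for 10 pairs, with exact two-sided p-values from all 331776 permutations within the groups and adjustment over the 10. Cd74 went with H2-Aa (Pearson's r = 0.895, adjusted p = 0.000332, Spearman's rho = 0.859, adjusted p = 0.00198) and kept r = 0.840 without the 2 mice farthest from the median. Cd74 with H2-Ab1 gave r = 0.823 and rho = 0.838 (permutation p adjusted to 0.00297 and 0.00198, r = 0.832 without the 2 mice). Cd74 with H2-Eb1 gave r = 0.718 and rho = 0.750 (adjusted permutation p = 0.0082 and 0.00376, r = 0.763 without the 2 mice). The mice that were high in the chains were thus also high in the invariant chain that assembles with them.

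The class I genes did the same among themselves. B2m with H2-D1 gave r = 0.936 and rho = 0.918 (adjusted permutation p = 0.000332 and 0.000512, r = 0.901 without the 2 farthest mice), and B2m with H2-K1 gave r = 0.791 and rho = 0.697 (adjusted permutation p = 0.00362 and 0.00724, r = 0.667). H2-K1 with H2-D1 gave r = 0.837 and rho = 0.797 (adjusted permutation p = 0.000332 and 0.00228, r = 0.731), though these 2 genes share stretches of sequence. Across the classes, H2-K1 with Cd74 gave r = 0.329 and rho = 0.20 (adjusted permutation p = 0.37 and 0.59). Ciita with H2-Aa gave r = 0.237 and rho = 0.265 (adjusted permutation p = 0.48 and 0.49), with Ciita at 41 counts or fewer in a mouse. The macrophage gene Csf1r gave r = -0.0609 and rho = -0.144 with Cd74 (adjusted permutation p = 0.83 and 0.62) and r = 0.364 and rho = 0.435 with H2-K1 (adjusted permutation p = 0.24 and 0.16). Csf1r was 1 of 11 macrophage genes measured, and the others were not related in this way. It shares 14.3% of its 50-base stretches with other genes and overlaps an exon of Hmgxb3 on the opposite strand. All values of a mouse come from 1 library and share its scaling factor.

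**Figure D5:**
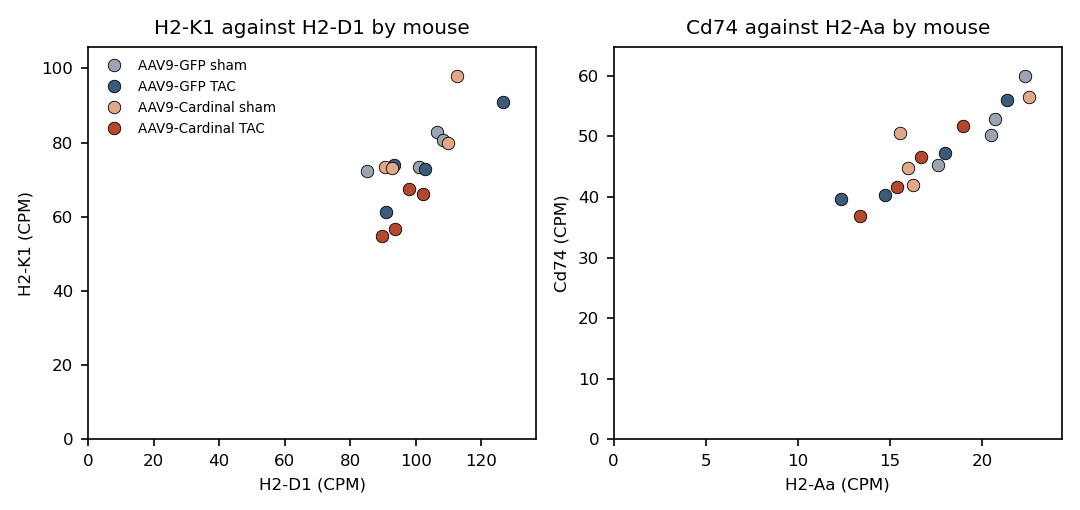
Levels in CPM by mouse, for H2-K1 against H2-D1 (left) and Cd74 against H2-Aa (right), with a point per mouse colored by group and both axes starting at 0. Cd74 rises with H2-Aa along a single band in all groups (r = 0.895 for deviations from group means), and AAV9-Cardinal TAC 4, 5 and 6 have the lowest ratios of H2-K1 to H2-D1, next to AAV9-GFP TAC 7 and AAV9-Cardinal TAC 1.

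The ratio of Cd74 to the mean of H2-Aa, H2-Ab1 and H2-Eb1, in CPM per kilobase, was likewise steady. It was 4.87 ± 0.404 (SD, n = 4) in AAV9-GFP sham, 5.06 ± 0.407 in AAV9-GFP TAC, 5.04 ± 0.248 in AAV9-Cardinal sham and 5.19 ± 0.214 in AAV9-Cardinal TAC hearts. In none of the 4 comparisons did the groups separate (exact permutation p between 0.43 and 0.60). By mouse, AAV9-Cardinal sham 1 ranked first of 16 in H2-Aa, Ciita and H2-K1, AAV9-GFP sham 2 first in Cd74, H2-Ab1 and H2-DMb1, and AAV9-GFP TAC 7 last in H2-Aa and H2-Ab1.

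Among 14284 other genes averaging 1 CPM or more, those whose log2 CPM over the 16 mice was most like the mean profile of H2-Aa, H2-Ab1, H2-Eb1 and Cd74 were Fkbp2 (r = 0.845), Gm8129 (r = 0.801), Rpl38-ps2 (r = 0.797), Mettl17 (r = 0.793) and Tcea2 (r = 0.781). Those most like the profile of H2-K1, H2-D1 and B2m were Ccnd1 (r = 0.874), H2-Q7 (r = 0.845), Map1b (r = 0.802), H2-T22 (r = 0.800) and Uvrag (r = 0.800). For deviations from the group means, r was 0.741 (Mettl17) to 0.812 (Gm8129) for the class II profile and 0.762 (Uvrag) to 0.880 (Ccnd1) for the class I profile. Genes outside each class thus also followed its profile, and the pairs above were not compared with pairs of other genes. These genes are the top of a ranking and are given without a test. H2-Q7 and H2-T22 are class I genes that shared 26.5% and 53.5% of their 50-base stretches with other genes.

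The wider pathway was described through 68 related genes, of which 62 passed the expression filter. In AAV9-GFP hearts, TAC raised 4 and lowered 4 of them, 8 of 62 in all against the 17.4% of all genes, and the median log2 fold change was 0.02. DESeq2 called 3 higher and 5 lower, with Cd40 lost and Iigp1 gained as lower. Its share over all genes is not given here. Among 14 genes for the supply and loading of class I peptides, Psmb10, a catalytic subunit of the immunoproteasome, rose, and Psme1, a proteasome activator subunit, and Canx, the chaperone calnexin, fell. Psmb10 stood at 17.5, 19.0, 20.3 and 16.03 CPM in sham and 25.2, 26.4, 22.8 and 25.1 CPM in TAC hearts, with no overlap (log2 fold change 0.45, SE 0.09, edgeR adjusted p = 0.0028). Psme1 changed by -0.31 (SE 0.08, edgeR adjusted p = 0.010) and Canx by -0.33 (SE 0.09, edgeR adjusted p = 0.016) on the log2 scale. Canx missed the threshold without AAV9-GFP TAC 3 (adjusted p = 0.058) or AAV9-GFP sham 1 (adjusted p = 0.054). The other 11 genes of that list, with the transporter genes Tap1 and Tap2 and the class I coactivator Nlrc5 among them, did not pass.

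Of 5 costimulation genes, which give T cells the second signal beside the MHC, Cd80 and Cd40 rose in control hearts. Cd80 was 1.70, 1.39, 1.18 and 1.47 CPM after sham surgery and 2.06, 3.69, 2.45 and 2.65 CPM after TAC, without overlap (log2 fold change 0.92, SE 0.18, edgeR adjusted p = 0.0029). Cd40 was 1.66, 0.528, 0.980 and 1.22 CPM and 1.67, 1.64, 1.88 and 1.96 CPM, with AAV9-GFP sham 1 as high as the TAC mice (log2 fold change 0.70, SE 0.22, edgeR adjusted p = 0.039). The call of Cd40 held in 6 of the 16 fits that each left out a mouse (adjusted p up to 0.10) and not with DESeq2 (adjusted p = 0.062), and without AAV9-GFP sham 2 its log2 fold change was 0.47. Of the interferon-gamma axis, 3 of 15 genes tested passed: the receptor gene Ifngr1 rose by 0.29 (SE 0.09), and the receptor gene Ifngr2 and the kinase gene Jak1 fell by 0.22 (SE 0.06) and 0.27 (SE 0.08) on the log2 scale, with edgeR adjusted p of 0.046, 0.023 and 0.023. Ifngr1 kept its call in 4 of the 16 fits that left out a mouse (adjusted p up to 0.15). Ifngr2 lost it without AAV9-GFP TAC 3 or 7 or AAV9-GFP sham 2 or 3 (adjusted p 0.062 to 0.078), and Jak1 without AAV9-GFP TAC 1 or 3 or AAV9-GFP sham 4 (adjusted p 0.063 to 0.078). Ifng itself, the cytokine, had 2 counts in a single AAV9-GFP TAC mouse and 0 in the other 15 mice. No gene passed with edgeR among the other class I heavy chains (13 tested), the other class II chains (2), the class II peptide supply genes (6) or the class II promoter factors (7). DESeq2 also called 0 in these 4 lists. An unadjusted edgeR p under 0.05 was found for 0, 0, 1 and 2 of them. Among all genes that share was at least the 17.4% that passed the adjusted threshold.

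In AAV9-Cardinal hearts edgeR called none of the 62 related genes in TAC against sham, against 6.48% of all genes. DESeq2 called 2 (Ifngr1 higher and Iigp1 lower), its share over all genes not being given here. At an unadjusted edgeR p under 0.05 there were 19, 14 of them lower. The share of all genes at that cutoff is not given here, so 19 of 62 cannot be judged as high or low. As a count chosen after the values were seen, the related genes were also taken without AAV9-Cardinal TAC 1. Without it edgeR called 5 of 63 related genes, against 8.41% of all genes: Ifngr1 rose by 0.39 on the log2 scale, and Psmb8 (-0.39, SE 0.10), Rfx5, a factor of the class II promoter complex (-0.91, SE 0.22), Ifi30, the lysosomal thiol reductase that unfolds antigens (-0.58, SE 0.13), and Iigp1, an interferon-induced GTPase (-0.74, SE 0.20), fell, with edgeR adjusted p between 0.014 and 0.036. The 13 other class I heavy chain genes tested had a median log2 fold change of -0.22, while that of all genes was close to 0, and 12 were below 0. In AAV9-GFP hearts 3 of the 13 were below 0, with a median of 0.09. None of the 13 passed. H2-Q4 and H2-Q6 were chosen for description after their values were seen. H2-Q4 stood at 32.5, 23.1, 26.0 and 19.1 CPM in AAV9-Cardinal sham and 21.9, 17.5, 19.8 and 17.6 CPM in AAV9-Cardinal TAC hearts, and H2-Q6 at 21.4, 13.9, 13.9 and 11.4 and 11.1, 8.55, 11.0 and 10.6 CPM. For both, AAV9-Cardinal sham 1 was the highest of the 16 mice, and the log2 fold changes were -0.39 (SE 0.15, edgeR adjusted p = 0.14) and -0.56 (SE 0.20, edgeR adjusted p = 0.11). H2-Q4 and H2-Q6 shared 36.4% and 35.0% of their 50-base stretches with other genes. Psmb8, another catalytic subunit of the immunoproteasome, stood at 7.73, 6.65, 6.87 and 6.36 CPM in AAV9-Cardinal sham and 6.42, 4.75, 5.73 and 5.29 CPM in AAV9-Cardinal TAC hearts (log2 fold change -0.32, SE 0.10, edgeR adjusted p = 0.074).

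Between the viruses in TAC hearts edgeR called none of the 62, against 0.101% of all genes. DESeq2 called 1, Psmb10, lower, against 428 of the 9010 genes for which it gave an adjusted p. At an unadjusted edgeR p under 0.05 there were 8, 7 of them lower in AAV9-Cardinal, against 2528 of 16857 genes. Without AAV9-Cardinal TAC 1 edgeR called 2 of 63, Psmb10 (-0.42, SE 0.08) and Psmb8 (-0.45, SE 0.10), both lower in AAV9-Cardinal (edgeR adjusted p = 0.016 and 0.027), against 3.13% of all genes. The 13 other class I heavy chain genes all had a log2 fold change below 0, with a median of -0.26 beside -0.01 over all genes. In sham hearts edgeR and DESeq2 called none, with 0 at an unadjusted edgeR p under 0.05, against 437 of 16857 genes. In the interaction both called none. There 9 had an unadjusted edgeR p under 0.05, all of them lower, against 1722 of 16857 genes.

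Markers of the cells that use these pathways were measured beside them. The 11 macrophage genes summed to 199 to 234 CPM in AAV9-GFP sham, 217 to 279 in AAV9-GFP TAC, 202 to 226 in AAV9-Cardinal sham and 195 to 263 in AAV9-Cardinal TAC hearts. In AAV9-GFP hearts 2 of the 11, C1qb and Fcgr1, rose after TAC with edgeR, against 17.4% of all genes, and C1qb alone with DESeq2. Of the 11, 10 had a log2 fold change above 0, while 6 of the 7 class II members had one below 0. In AAV9-Cardinal hearts none of the 11 passed with edgeR, against 6.48% of all genes, and DESeq2 called none. None had an unadjusted edgeR p under 0.05, and 8 had a log2 fold change above 0 (median 0.12). Without AAV9-Cardinal TAC 1, 5 of the 11 were above 0 and Cd68 fell there (log2 fold change -0.62, SE 0.16, edgeR adjusted p = 0.028), against 8.41% of all genes. Without that mouse Cd68 (-0.82, SE 0.15) and C1qc (-0.43, SE 0.11) were also lower than in AAV9-GFP TAC hearts (edgeR adjusted p = 0.014 and 0.047), against 3.13% of all genes. The 7 dendritic cell genes summed to 13.9 to 22.7 CPM over all mice, a sum made up mostly of Zbtb46 (219 to 372 counts). Clec9a (32 to 102 counts) was also present in every mouse. Itgax, Flt3, Xcr1, Cd209a and Batf3 had at most 14 counts in a mouse, with Flt3 at 0 in 15 mice and Batf3 in 11. Clec9a, 1 of the 3 tested, rose after TAC in AAV9-Cardinal hearts with edgeR (log2 fold change 0.63, SE 0.18, adjusted p = 0.046) and with DESeq2, against 6.48% of all genes with edgeR. Without AAV9-Cardinal TAC 1 it rose by 0.74 (edgeR adjusted p = 0.021). In the fit of all mice the 3 tested genes ran from -1.57 to 0.63, with 1 below 0 and a median of 0.08. Clec9a overlaps an exon of Clec1b on its own strand and shares 4.02% of its 50-base stretches with other genes. Markers of B and T cells were low but not all absent. Ighm had 22 to 125 counts and Cd4 8 to 34 in every mouse. The B cell gene Ms4a1 was at 0 in 11 mice, and the T cell genes Cd3d in 14 and Cd3g in 13, none above 7 counts in a mouse, and the 6 B cell genes summed to 1.62 to 6.08 CPM and the 6 T cell genes to 0.779 to 2.22 CPM. The 6 endothelial genes, from cells that also carry class I, summed to 427 to 522 CPM in AAV9-GFP sham and 505 to 603 in AAV9-GFP TAC hearts. Of these, 3 were raised there with edgeR (Cdh5, Egfl7 and Cldn5), against 17.4% of all genes. The 6 summed to 445 to 476 CPM in AAV9-Cardinal sham and 478 to 588 in AAV9-Cardinal TAC hearts. There edgeR called none, against 6.48% of all genes, and Cldn5 was raised with DESeq2. The 6 fibroblast genes summed to 426 to 486, 578 to 716, 412 to 459 and 416 to 626 CPM in the same order of groups. Of these, Col1a1, Col1a2 and Lum rose after TAC in AAV9-GFP hearts with both tools, against 17.4% of all genes with edgeR. In AAV9-Cardinal hearts edgeR called none of the 6, against 6.48% of all genes, and DESeq2 called Col1a1 and Col1a2 raised by TAC. Between the viruses in TAC hearts edgeR called none, against 0.101% of all genes. DESeq2 called Col1a1 and Col1a2 lower with AAV9-Cardinal there, against 428 of the 9010 genes for which it gave an adjusted p. The share of all genes that DESeq2 called in TAC against sham is not given here for either virus. When AAV9-Cardinal TAC 1 was left out, edgeR called 4 of the 6 lower with AAV9-Cardinal in TAC hearts, against 3.13% of all genes. Among them was Col1a1 (log2 fold change -1.14, SE 0.11, edgeR adjusted p = 0.00016). Of the 6 cardiomyocyte genes, 4 fell after TAC in AAV9-GFP hearts (Myh6, Ryr2, Tnni3 and Tnnt2), against 17.4% of all genes with edgeR. Actn2 rose in AAV9-Cardinal hearts (edgeR adjusted p = 0.046), against 6.48% of all genes. Between the viruses in TAC hearts edgeR called none of the 6. DESeq2 called Myh6, Ryr2, Tnni3 and Tnnt2 higher with AAV9-Cardinal, against 428 of the 9010 genes for which it gave an adjusted p. With AAV9-Cardinal TAC 1 left out, edgeR called Tnni3 and Tnnt2 higher, against 3.13% of all genes. The part of these cell populations in the levels of the MHC genes was not tested.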

How the data were processed

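RNA was sequenced from the heart apex of 16 mice as poly(A) libraries on a DNBSEQ instrument with single-end 50-base reads. The authors deposited 1 table of raw counts per gene. Per the labels, the submitters' processing notes name FastQC, HISAT2 2.1.0, edgeR 3.26.1 and GRCm38; the counting program, annotation and strand setting are not given in the sources used here. Of 55573 gene IDs, 55480 were named with GENCODE M21, and 0 value columns were left unused.

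All 16 mice entered 1 edgeR 4.0.16 quasi-likelihood fit in R 4.3.3 (TMM scaling, filterByExpr, 16857 genes, Benjamini-Hochberg threshold 0.05), from which TAC against sham within each virus, AAV9-Cardinal against AAV9-GFP within each surgery, and the difference in TAC response were taken. Intervals are at 95%. Log2 CPM used a prior count of 2. Single genes were also compared by exact two-sided permutation of 70 labelings. The script was tested on simulated data for TAC against sham in AAV9-GFP hearts with 16637 genes: the fit recovered 48% of the 1.5-fold differences and 86% of the 2-fold ones, and 5 unchanged genes were called. Alternatives were DESeq2 1.42.0, upper-quartile scaling, other filters, a robust spread, the compared mice alone, mitochondrial genes left out, a replicate block and leaving out each mouse. Library totals ran from 16441997 to 21904589 counts, with 30.3% to 34.0% on mitochondrial genes. The labels do not say whether mice shared litters or surgery days.

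The 10 members and all lists were chosen with earlier results of these data known. Named genes were the members, related genes past the threshold (at most 4 per list and comparison, by size) and the 5 genes most like each class profile. Any other gene named was chosen after its values were seen, as were the ratios, the class I sum and the counts of related genes without AAV9-Cardinal TAC 1. Promoters came from RefSeq (GRCm38.p6). Tables were handled in Python 3.11.15 (scipy 1.17.1, pandas 2.3.3) and figures drawn with matplotlib 3.10.9.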

Additional observations from a re-analysis of the deposited data

Results flagged for a closer look

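In groups of 4, a mouse was set apart where its gap to the nearest of the others took a larger share of the group's range than Dixon's 95% value allows. Of 76 groups tested 5 were set apart this way, and chance gives about 1 in 20, or 3.8.

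AAV9-Cardinal sham 1 stood above its group in H2-Aa, at 22.5 CPM against 15.6 to 16.3 CPM in the other 3 mice, and in Ciita, at 1.85 CPM against 0.908 to 0.929 CPM. Without this mouse the TAC fold change of H2-Aa in AAV9-Cardinal hearts was 0.01 and that of Ciita -0.15 on the log2 scale. The kinase gene Jak1 was at 131 CPM in AAV9-GFP sham 4 against 120 to 122 CPM in the other 3 mice, and at 132 CPM in AAV9-Cardinal sham 4 against 118 to 119 CPM. The library of AAV9-Cardinal sham 4 held 16441997 counts against 21603910 to 21786630 in the rest of its group.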

How the results depend on the processing

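Of 1195 values of the 10 genes under alternatives, 1123 kept their direction and side of the threshold. The class I sum was counted there as an alternative for H2-K1. The call of H2-K1 in AAV9-Cardinal TAC, the single member called, became 0 with mitochondrial genes left out, with no filter, with only the mice compared and with the replicate block, and leaving out a mouse gave 0 to 1. The number of genes called in AAV9-Cardinal TAC against sham was 1092, 615 with no filter and 31 with the block (384 to 1436 leaving out a mouse). In AAV9-GFP it was 2934 (1962 to 3072). Between viruses in TAC hearts it was 17, and 428 with DESeq2, 35 with at least 1 CPM, 30 without mitochondrial genes, 3 with no filter, 3 with only the mice compared, 0 with the block and 31 with upper-quartile scaling (0 to 535, the latter without AAV9-Cardinal TAC 1). In sham hearts it was 2, 4 with DESeq2 and 1 with the block (1 to 3), and for the difference in response 2, 137 with DESeq2 and 1 with the block (2 to 79). Apart from fewer mice or a changed set of genes tested, the cause was not tested.

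Directions that reversed belonged to small log2 fold changes, none past the threshold. With the block the difference in response was -0.14 for H2-Aa, -0.28 for H2-Ab1, -0.20 for H2-Eb1 and -0.21 for Cd74, and TAC against sham was 0.026 for H2-K1 in AAV9-GFP and 0.0028 for B2m in AAV9-Cardinal hearts. With no filter the last was 0.0018. The row summed from 16 class I genes, set against H2-K1 though H2-K1 held only 28.0% of its counts, was at 0.033 in AAV9-GFP hearts. Over 16 same-numbered pairs of mice r was -0.0404 to 0.211, with a median of 0.0544, and 4 exceeded 0.1. For pairs with different numbers r was -0.193 to 0.218, with a median of -0.013. The 4 same-numbered pairs above 0.1 all joined mice numbered 1 (0.130, 0.103, 0.211 and 0.149). The remaining pairs of mice numbered 1 were at 0.067 and 0.073. Whether mice of equal number had anything in common was not tested.

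Leaving out a mouse, the range passed 0 for TAC against sham in H2-K1 (-0.15 to 0.042) and H2-D1 (-0.064 to 0.11) of AAV9-GFP and in H2-Aa (-0.22 to 0.014) and B2m (-0.062 to 0.055) of AAV9-Cardinal hearts. Between viruses in TAC hearts it did for H2-Aa (-0.16 to 0.10), H2-Eb1 (-0.19 to 0.034), H2-DMb1 (-0.16 to 0.13), Cd74 (-0.13 to 0.064) and H2-D1 (-0.17 to 0.0052), and in sham hearts for H2-Eb1 (-0.22 to 0.00091), H2-K1 (-0.033 to 0.12), H2-D1 (-0.054 to 0.067) and B2m (-0.031 to 0.10). For the difference in response it did for H2-Ab1 (-0.10 to 0.10), H2-Eb1 (-0.11 to 0.17), H2-DMa (-0.22 to 0.068) and Cd74 (-0.029 to 0.17). Counting error limits Ciita, H2-DMb1 and H2-DMa most.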

Other observations

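The class I gene H2-Q2 had 24 and 21 counts in AAV9-Cardinal sham 1 and 2, 22 counts in AAV9-GFP TAC 4 and 0 counts in the other 13 mice. Creb1, which encodes a factor that binds class II promoters, had 91 counts (4.03 CPM) in AAV9-Cardinal TAC 1 and 335 to 622 counts in the other 15 mice. Both genes were singled out after their values were seen, and no test was made.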
